A study of Homo sapiens with 12 samples.

Results

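The genes described here carry cholesterol from lipoproteins outside the cell towards the mitochondria, and they were measured by RNA-seq in NCI-H295R, a human adrenocortical carcinoma cell line that makes cortisol. They were chosen by name (SCARB1, LRP8, LIPA, NPC1, NPC2, STARD3, STARD4, TSPO, OSBP and SCP2) and are 10 of the 60662 genes listed. All 10 were among the 16815 genes tested, those with at least 0.5 TPM in at least 4 of the 12 samples. Confluent cells were kept for 12 h without serum and then treated for 24 h, in 3 groups of 4 samples. The control group (VEH) received 0.1% DMSO, the CJ28 group received 30 µM CJ28, and the MET group received 30 µM metyrapone, an inhibitor of the enzyme that completes cortisol synthesis. CJ28 was studied as another inhibitor of cortisol production. The 4 samples of a group are given as biological replicates, without a statement of separate passages or days, and all are of 1 tumour line, so each p-value measures only the spread between samples of that line.

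Cells that make steroids take in cholesterol from both LDL and HDL. LDL is bound at the cell surface and carried to lysosomes, where its cholesteryl esters are cut and free cholesterol is passed on to other membranes, whereas HDL gives up its cholesteryl esters to a surface receptor without being taken in whole. Sterol transfer proteins then move cholesterol between late endosomes, the endoplasmic reticulum (ER) and the Golgi, and STAR, acting at the outer mitochondrial membrane, delivers it to the side-chain cleavage enzyme CYP11A1, which makes pregnenolone from it.

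The deposited values are TPM, which give the part of a sample's transcripts that comes from each gene, corrected for transcript length, so levels can be compared between genes. The table holds no read numbers, so the counting error of a value is unknown. In bulk samples such as these, fewer cells of a kind and less RNA per cell cannot be told apart. Markers of the labelled cell type were present, and the summed level of 8 adrenocortical markers was 270.5 to 281.2 TPM in VEH, 108.7 to 116.3 TPM in CJ28 and 269.5 to 284.0 TPM in MET. All 7 of these markers that were tested were lower in CJ28 than in VEH, and CYP11B1, the enzyme metyrapone inhibits, was at or near 0 in every sample. HSD3B2 and MC2R were low in VEH too, with means of 0.863 and 1.04 TPM. The summed level of 5 adrenal medulla markers was 6.83 to 7.4 TPM in VEH, 5.02 to 6.17 TPM in CJ28 and 6.37 to 6.86 TPM in MET, with TH at 0 and both tested markers, CHGA and CHGB, lower in CJ28, a call that CHGA lost with median-of-ratios scaling (adjusted p 0.0932) and both lost when TPM was recomputed over nuclear protein-coding genes (0.104 and 0.0975). The part of these shifts in the results was not tested. Nuclear protein-coding genes took 24.3 to 24.8% of all TPM in VEH, 21.3 to 21.4% in CJ28 and 24.1 to 24.6% in MET. Over all tested genes the median log2 fold change between CJ28 and VEH was -0.13, and scaling the samples by the median of their gene ratios moved it to 0.014, so rescaled values or counts are given beside results that they change.

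The regions upstream of 3 members are shown. STARD4 had the largest fall and NPC1 the largest rise with CJ28, and NPC2 makes the protein that works with NPC1. Each region is the 250 bases before an annotated start site, read on the gene strand from RefSeq (GRCh38.p14), at chr5:111512536-111512785 for STARD4, chr14:74493513-74493762 for NPC2 and chr18:23586507-23586756 for NPC1, all on the minus strand. Capitals mark the CCAAT box, as CCAAT or as its reverse complement ATTGG.
STARD4: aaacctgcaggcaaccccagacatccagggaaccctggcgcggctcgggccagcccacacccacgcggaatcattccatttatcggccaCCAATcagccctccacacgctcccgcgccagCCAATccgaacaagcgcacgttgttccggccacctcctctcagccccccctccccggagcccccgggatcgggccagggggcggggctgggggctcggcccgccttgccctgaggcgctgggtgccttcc
NPC2: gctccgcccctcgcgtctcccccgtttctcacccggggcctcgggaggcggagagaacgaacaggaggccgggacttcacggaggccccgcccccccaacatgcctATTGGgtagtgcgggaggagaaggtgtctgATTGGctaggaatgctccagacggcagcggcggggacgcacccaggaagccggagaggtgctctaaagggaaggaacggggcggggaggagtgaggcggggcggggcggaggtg
NPC1: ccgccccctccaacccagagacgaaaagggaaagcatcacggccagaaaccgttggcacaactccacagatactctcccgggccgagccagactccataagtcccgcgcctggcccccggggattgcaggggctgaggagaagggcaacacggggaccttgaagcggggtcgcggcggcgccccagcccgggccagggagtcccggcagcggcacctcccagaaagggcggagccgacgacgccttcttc
The STARD4 region held CCAAT at -161 and -130, counted from the start site, the NPC2 region held ATTGG at -144 and -114, and the NPC1 region held neither. NPC2 has another annotated start site, at chr14:74493305, and the 250 bases before it held neither. Windows of 300 bases, 250 before and 50 after a start site, were matched for 9 members, all but SCARB1. Of these 9, LIPA, NPC2, OSBP and STARD4 (4 genes) had a CCAAT box in at least 1 window, and of the 15 windows of the 9 genes 5 held it (33.3%), close to the 34.6% of the 35116 windows of all genes. None of the 9 had TCACNCCAC, a form of the sterol regulatory element found in 1.13% of all windows. None had TCACGTGA, the CLEAR element of lysosomal genes (0.98% of windows), or AAGGTCA, a site of the steroidogenic factor NR5A1 (3.92% of windows). Both strands were searched for each motif.

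In the controls the members spanned a wide range of levels. SCARB1 was the most abundant at 142 ± 11.8 TPM (SD, n = 4), above 98.0% of tested genes, and was followed by NPC2 at 43.5 ± 2.27 TPM. SCP2 (32.8 ± 0.753 TPM) and STARD4 (31.6 ± 0.994 TPM) came next with overlapping ranges. STARD3 followed, and then OSBP and NPC1, whose ranges also overlapped. LIPA, LRP8 and TSPO were the lowest, each apart from its neighbours, with TSPO at 0.672 ± 0.13 TPM, above 11.3% of tested genes. In MET the order was the same. In CJ28, STARD4 no longer overlapped SCP2 and instead overlapped STARD3, STARD3 overlapped NPC1, and NPC1 stood above OSBP. LRP8 overlapped TSPO there only through TSPO in CJ28-4, at 1.0 TPM, a value flagged below.

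**Figure D1:**
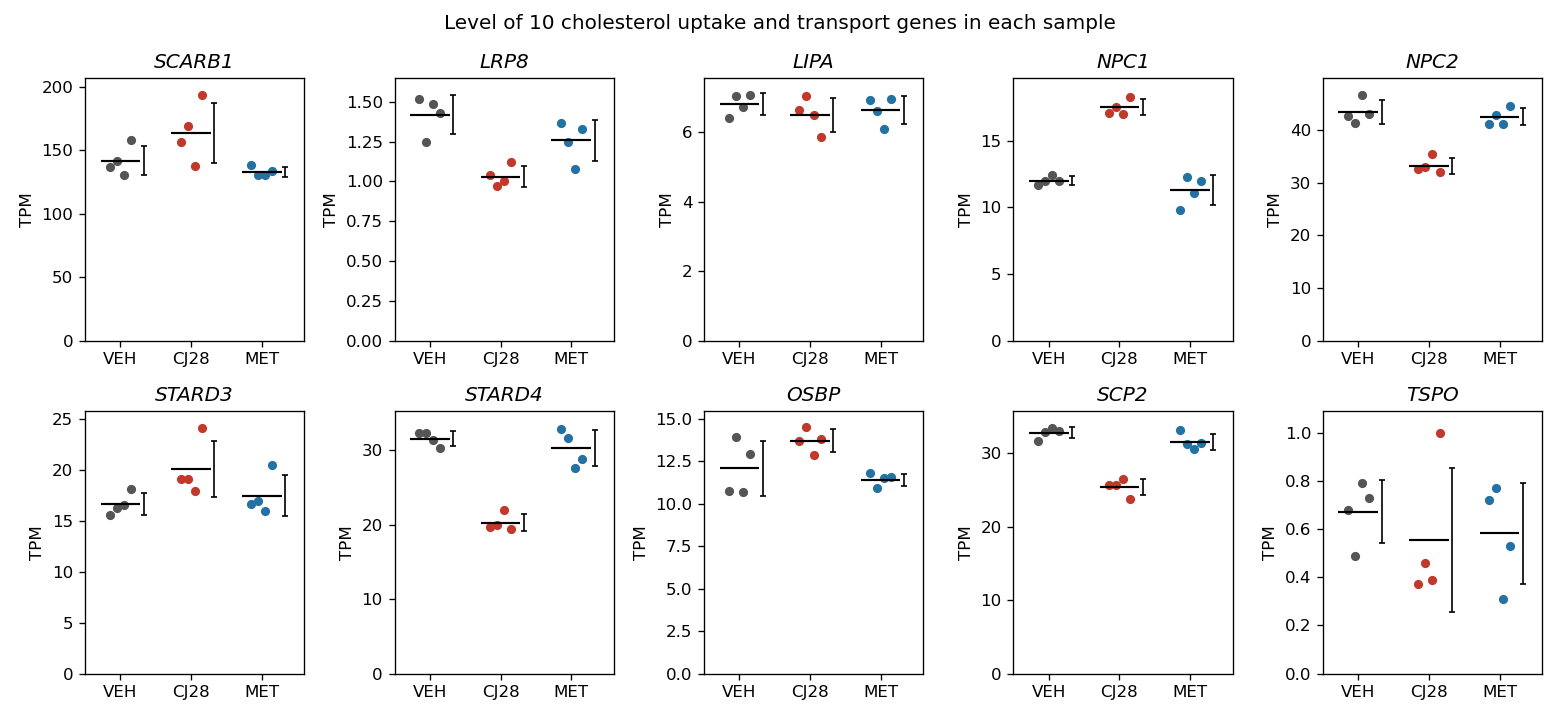
Level of each of the 10 genes in TPM (vertical axes, linear and from 0) in the VEH, CJ28 and MET samples. Points are samples, horizontal lines are group means and the bars beside them are SD (n = 4). The 4 CJ28 points lie above all VEH points for NPC1 and below them for LRP8, NPC2, STARD4 and SCP2.

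CJ28 changed the mRNA of 6 of the 10 genes, and in both directions. NPC1 and STARD3, membrane proteins of late endosomes and lysosomes, rose, whereas LRP8, NPC2, STARD4 and SCP2 fell. The rise of STARD3 was less secure, since its CJ28 and VEH samples overlapped and it was called in 16 of 21 alternative settings. In TPM as deposited, the mean level of STARD4 fell by 35.9%, the largest fall, and that of NPC1 rose by 45.5%, the largest rise. The 6 changes are calls at an adjusted p under 0.05 in limma, a threshold that 57.0% of all tested genes passed (19.9% higher and 37.1% lower), so the share of members called was close to that of all genes. In 5 members (LRP8, NPC1, NPC2, STARD4 and SCP2) the CJ28 and VEH samples did not overlap, as in 50.3% of all tested genes. The median log2 fold change was -0.19 over the members and -0.13 over all tested genes. With median-of-ratios scaling the calls were 4 higher, with SCARB1 and OSBP added, and 4 lower. Of all 16815 tested genes, 4925 were called higher and 4430 lower with that scaling.

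Of the receptors, SCARB1 (chr12:124776856-124882668) takes cholesteryl esters from HDL. Its level was 137, 142, 131 and 158 TPM in the VEH samples, 157, 169, 137 and 194 TPM in the CJ28 samples, and 138, 131, 131 and 134 TPM in the MET samples. The lowest CJ28 sample lay within the VEH range, and the highest, CJ28-4, lay well above it. With CJ28 its log2 fold change was 0.20 (SE 0.087, 95% interval 0.01 to 0.39), with an adjusted p of 0.0672. This became a call with median-of-ratios scaling (0.35, adjusted p 0.00185), without VEH-4 (0.25, adjusted p 0.0308) and without CJ28-3 (0.28, adjusted p 0.00698), whereas without CJ28-4 it fell to 0.12 (adjusted p 0.195).

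LRP8 (chr1:53242364-53328469), a receptor that binds apolipoprotein E, was at 1.52, 1.25, 1.49 and 1.43 TPM in VEH, 1.04, 0.97, 1.0 and 1.12 TPM in CJ28, and 1.37, 1.25, 1.08 and 1.33 TPM in MET. Every CJ28 sample was below every VEH sample, while 1 MET sample fell in the CJ28 range. CJ28 differed from VEH by a log2 fold change of -0.43 (SE 0.10, 95% interval -0.65 to -0.20, adjusted p = 0.00386). With TPM recomputed over nuclear protein-coding genes alone it was -0.25 with an adjusted p of 0.0709, no longer a call.

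In the lysosome, LIPA (chr10:89213569-89414557) is the acid lipase that cuts cholesteryl esters. It was at 6.4, 7.04, 6.73 and 7.06 TPM in VEH, 6.62, 7.05, 6.48 and 5.86 TPM in CJ28, and 6.91, 6.61, 6.08 and 6.94 TPM in MET. The 3 groups overlapped. Relative to VEH, CJ28 gave a log2 fold change of -0.07 (95% interval -0.21 to 0.07, adjusted p = 0.402), and its sign turned with median-of-ratios scaling, to 0.08.

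NPC2 (chr14:74476192-74494177), the soluble lysosomal protein that hands free cholesterol to NPC1, was at 42.7, 41.4, 46.7 and 43.1 TPM in VEH, 32.6, 32.9, 35.45 and 31.9 TPM in CJ28, and 41.2, 42.9, 41.2 and 44.6 TPM in MET. All CJ28 samples were below all others. Between CJ28 and VEH the log2 fold change was -0.39 (SE 0.046, 95% interval -0.49 to -0.29, adjusted p = 1.37e-05). It was smaller and still a call with median-of-ratios scaling (-0.23, adjusted p 0.00396) and over nuclear protein-coding genes (-0.18, adjusted p 0.0033).

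NPC1 (chr18:23506184-23586506), the membrane protein that takes cholesterol from NPC2 and exports it, moved the other way. It was at 11.66, 11.95, 12.42 and 11.97 TPM in VEH, 17.05, 17.5, 17.0 and 18.3 TPM in CJ28, and 9.77, 12.3, 11.08 and 11.97 TPM in MET. All CJ28 samples were above all others, by more than the whole range of the VEH and MET samples. Its log2 fold change from VEH to CJ28 was 0.54 (SE 0.063, 95% interval 0.40 to 0.68, adjusted p = 1.27e-05). It was larger with median-of-ratios scaling (0.69, adjusted p 1.43e-06) and over nuclear protein-coding genes (0.75, adjusted p 9.34e-08), both above that interval.

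Among the transfer proteins, STARD3 (chr17:39637090-39664201) is a START-domain protein of late endosomes that contacts the ER. It was at 15.56, 16.31, 16.61 and 18.13 TPM in VEH, 19.15, 19.16, 17.97 and 24.12 TPM in CJ28, and 16.71, 16.96, 15.99 and 20.46 TPM in MET. The CJ28 and VEH ranges overlapped by a single sample on each side, and CJ28-4 was the highest of all 12. With CJ28 its log2 fold change was 0.26 (SE 0.095, 95% interval 0.06 to 0.47, adjusted p = 0.0322). Without CJ28-4 it was 0.17 with an adjusted p of 0.0883, and the call was also lost without VEH-1 (0.0826), VEH-2 (0.0661) or VEH-3 (0.058), the values being adjusted p. With median-of-ratios scaling it was 0.41 (adjusted p 0.00157).

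STARD4 (chr5:111496033-111512590), a small soluble START protein that moves cholesterol between membranes, was at 32.3, 32.4, 31.4 and 30.3 TPM in VEH, 19.7, 19.9, 22.0 and 19.4 TPM in CJ28, and 32.9, 31.7, 27.6 and 28.9 TPM in MET. The CJ28 samples lay below all others, and the VEH and MET samples overlapped. CJ28 differed from VEH by a log2 fold change of -0.64 (SE 0.058, 95% interval -0.77 to -0.51, adjusted p = 1.14e-06). The fall was smaller with median-of-ratios scaling (-0.49, adjusted p 3.8e-05) and over nuclear protein-coding genes (-0.44, adjusted p 7.4e-06), both outside that interval. Over the 12 samples, the tested genes whose log2 values followed STARD4 most closely were MRPL50 (Pearson r 0.989), MRFAP1L1 (0.986) and NIPSNAP1 (0.985), a description in which the CJ28 samples are set apart from the others.

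OSBP (chr11:59574398-59615774), which exchanges cholesterol for a phosphoinositide between the ER and the Golgi, was at 10.7, 13.9, 10.7 and 12.9 TPM in VEH, 13.7, 14.5, 12.9 and 13.8 TPM in CJ28, and 11.8, 10.9, 11.5 and 11.55 TPM in MET. The VEH samples fell into a lower and a higher pair, and the higher pair reached the CJ28 range. Relative to VEH, CJ28 gave a log2 fold change of 0.19 (SE 0.08, 95% interval 0.02 to 0.37, adjusted p = 0.056). This became a call with median-of-ratios scaling (0.34, adjusted p 0.000804) and without VEH-2 (0.26, adjusted p 0.00725), VEH-4 (0.23, adjusted p 0.0411) or CJ28-3 (0.22, adjusted p 0.0476).

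SCP2 (chr1:52927276-53051698), whose gene makes sterol carrier protein 2 and a larger peroxisomal thiolase, was at 31.8, 32.9, 33.5 and 33.1 TPM in VEH, 25.7, 25.7, 26.5 and 23.9 TPM in CJ28, and 33.2, 31.3, 30.6 and 31.4 TPM in MET. The CJ28 samples were below all others. Between CJ28 and VEH the log2 fold change was -0.37 (SE 0.039, 95% interval -0.45 to -0.28, adjusted p = 5.29e-06). Here too the value was smaller with median-of-ratios scaling (-0.22, adjusted p 0.00159) and over nuclear protein-coding genes (-0.16, adjusted p 0.0023).

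At the mitochondria, TSPO (chr22:43151547-43163242) is a cholesterol-binding protein of the outer membrane. It was at 0.68, 0.49, 0.79 and 0.73 TPM in VEH, 0.37, 0.46, 0.39 and 1.0 TPM in CJ28, and 0.72, 0.77, 0.31 and 0.53 TPM in MET. The groups overlapped, and the highest and the lowest values of all were a CJ28 and a MET sample. Its log2 fold change from VEH to CJ28 was -0.32 with a wide 95% interval of -0.98 to 0.35 (adjusted p = 0.404), which covers changes in both directions. Without CJ28-4 it was -0.60 (adjusted p 0.0789), without CJ28-1 -0.19 (0.659) and without CJ28-3 -0.21 (0.629), and with median-of-ratios scaling it was -0.19 (0.631).

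In exact two-sided permutation tests of single genes, the CJ28 and VEH means of LRP8, NPC1, NPC2, STARD4 and SCP2 each gave p = 0.0286, the smallest value that 4 against 4 samples allow, and STARD3 gave p = 0.0571. NPC1, NPC2, STARD4 and SCP2 were called in all 21 alternative settings tried, LRP8 in 20, STARD3 in 16 and SCARB1 and OSBP in 5 each.

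No member was called with MET. By limma, 0 of the 10 genes were called for MET against VEH, as were 0.00595% of all tested genes, and 0 of the 10 had an unadjusted p under 0.05, against 5.20% of all. In 0 of the 10 did the groups fail to overlap, against 2.81% of all. The log2 fold changes ran from -0.22 for TSPO to 0.07 for STARD3, with 9 of 10 below 0, a median of -0.07 against -0.03 over all tested genes, and a lowest adjusted p of 0.935, that of LRP8. The 95% intervals set limits on these changes. They were -0.13 to 0.07 for NPC2, -0.14 to 0.03 for SCP2, -0.19 to 0.06 for STARD4, -0.18 to 0.10 for LIPA and -0.23 to 0.04 for NPC1. They were wider for OSBP (-0.24 to 0.11), SCARB1 (-0.28 to 0.10), STARD3 (-0.14 to 0.28) and LRP8 (-0.39 to 0.06), and widest for TSPO (-0.89 to 0.45).

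**Figure D2:**
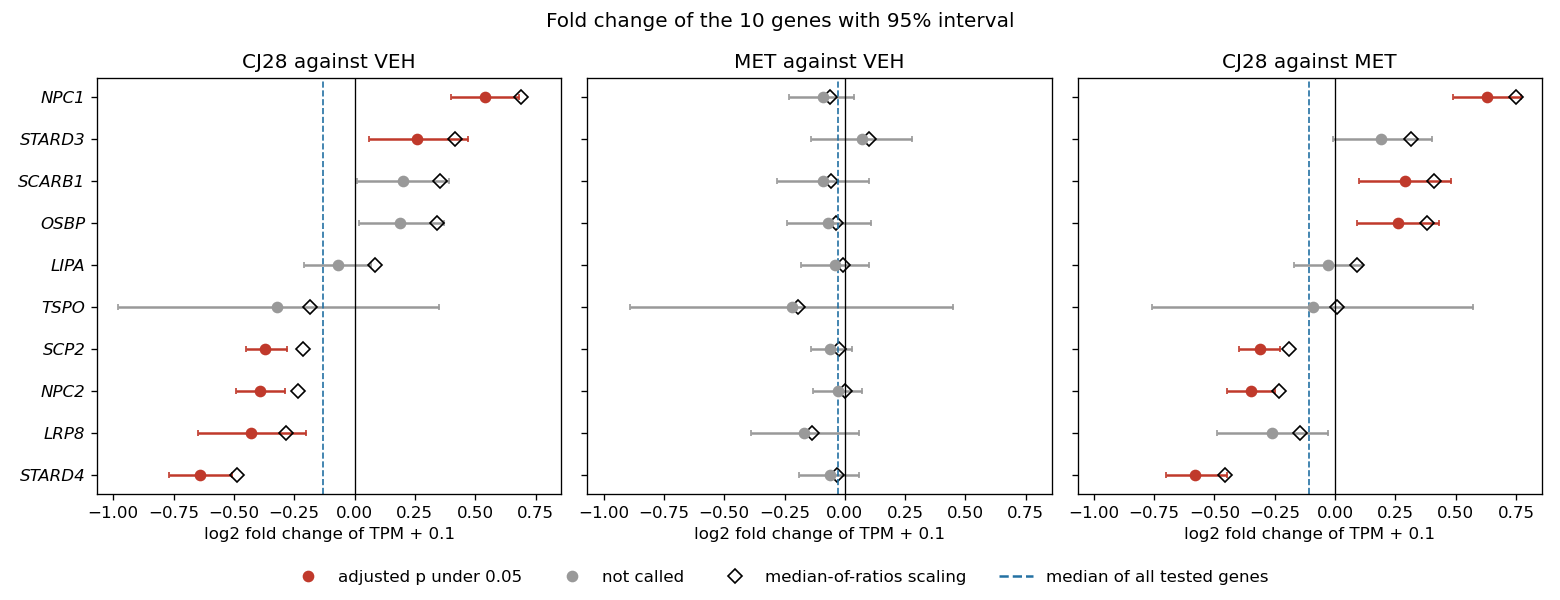
Log2 fold change of TPM + 0.1 (horizontal axes) of the 10 genes in the 3 comparisons, with 95% intervals. Filled circles are red where the adjusted p was under 0.05 and grey otherwise, open diamonds are the values after median-of-ratios scaling, and dashed lines are the median of all tested genes. For MET against VEH all circles lie between -0.22 and 0.07, and for CJ28 against VEH they run from -0.64 for STARD4 to 0.54 for NPC1.

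The direct comparison of CJ28 with MET, at the same dose and time, called 6 of the 10 genes, against 55.5% of all tested genes. NPC1 (log2 fold change 0.63, adjusted p = 3.12e-06), SCARB1 (0.29, adjusted p = 0.0137) and OSBP (0.26, adjusted p = 0.0148) were higher in CJ28, where 20.9% of all genes were. STARD4 (-0.58, adjusted p = 3.14e-06), NPC2 (-0.35, adjusted p = 3.03e-05) and SCP2 (-0.31, adjusted p = 2.31e-05) were lower in CJ28, where 34.6% of all genes were. The samples of CJ28 and MET did not overlap for 5 members (NPC1, NPC2, STARD4, OSBP and SCP2), against 50.2% of all genes. The median was -0.06 over the members and -0.11 over all. LRP8 differed by -0.26 (95% interval -0.49 to -0.03, adjusted p = 0.052), STARD3 by 0.19 (-0.01 to 0.40, adjusted p = 0.104), LIPA by -0.03 (-0.17 to 0.11, adjusted p = 0.72) and TSPO by -0.09 (-0.76 to 0.57, adjusted p = 0.813). LRP8 became a call without VEH-2 (adjusted p 0.0453), CJ28-4 (0.046) or MET-3 (0.0227), but shrank to -0.15 (0.269) with median-of-ratios scaling and to -0.09 (0.522) over nuclear protein-coding genes. STARD3 became a call without MET-4 (0.0242) and with median-of-ratios scaling (0.00921), but was 0.10 (0.301) without CJ28-4. SCP2 was -0.19 (0.00358) and NPC2 -0.23 (0.00416) with median-of-ratios scaling, and they were -0.12 (0.0146) and -0.16 (0.00666) over nuclear protein-coding genes. TSPO ran from -0.37 without CJ28-4 to 0.04 without MET-2. This comparison uses the same CJ28 samples as that with VEH, so the calls of both are not independent.

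Ratios within a sample do not depend on how the sample is scaled. Those given here were chosen after the values were seen and carry no test. NPC1 to NPC2 was 0.273, 0.289, 0.266 and 0.278 in VEH, 0.522, 0.531, 0.48 and 0.573 in CJ28, and 0.237, 0.287, 0.269 and 0.268 in MET. The CJ28 samples lay apart from the others, and the mean ratio was 1.91 times that of VEH. STARD3 to STARD4, the START protein of late endosomes and the soluble one, was 0.481, 0.504, 0.528 and 0.599 in VEH, 0.972, 0.961, 0.818 and 1.24 in CJ28, and 0.508, 0.535, 0.579 and 0.708 in MET, so that CJ28 brought both to about equal levels.

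**Figure D3:**
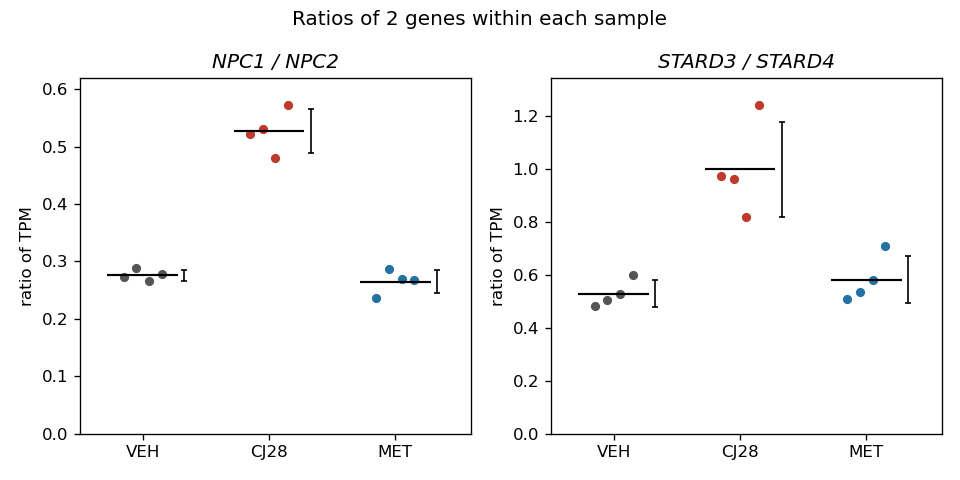
Ratio of the TPM of 1 gene to that of another in each sample (vertical axes, linear and from 0), for NPC1 to NPC2 and STARD3 to STARD4. Points are samples, horizontal lines are group means and bars are SD (n = 4). In each panel all 4 CJ28 points lie above all VEH and MET points.

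Genes with related roles give the setting of the members. Their counts stand beside those of all 16815 tested genes, of which 19.9% were called higher with CJ28 and 37.1% lower. With median-of-ratios scaling 4925 of all tested genes were called higher and 4430 lower. Of 6 tested lipoprotein receptors and their regulators, 5 fell with CJ28 and 0 rose, with a median log2 fold change of -0.38. They included VLDLR, a receptor of triglyceride-rich lipoproteins (-1.30, adjusted p = 4.14e-07), the sorting receptor SORT1 (-0.18, adjusted p = 0.0124) and CD36, which takes up fatty acids and modified lipoproteins (-0.17, adjusted p = 0.00194). The others that fell were MYLIP (-0.92, adjusted p = 7.7e-05) and PDZK1 (-0.54, adjusted p = 0.00587), whose means over all samples were 0.882 and 0.987 TPM. With median-of-ratios scaling 3 of the 6 fell and 0 rose. VLDLR (-1.16), MYLIP (-0.78) and PDZK1 (-0.4) kept their calls, and SORT1 (-0.03) and CD36 (-0.02) were not called. Over nuclear protein-coding genes both turned in sign (0.02 and 0.03) without a call. LRP8 moved in the direction of this list, and SCARB1 did not.

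Of 13 tested genes of the lysosome and late endosome, 6 rose and 2 fell, with a median of 0.09. The proteases CTSL (28.7 ± 0.495 TPM in VEH and 39.0 ± 1.71 TPM in CJ28, SD, n = 4, log2 fold change 0.44, adjusted p = 7.61e-07) and CTSB (0.36, adjusted p = 0.00012) rose, as did TFE3, a transcription factor of lysosomal genes (0.30, adjusted p = 0.000624). Those that fell were SCARB2 (-0.14, adjusted p = 0.0247) and TMEM97 (-1.71, adjusted p = 7.92e-11), a sterol-regulated membrane protein that binds NPC1. TMEM97 was at 67.6, 69.9, 62.4 and 62.2 TPM in VEH and 19.2, 19.0, 21.9 and 19.6 TPM in CJ28, with no overlap, while NPC1 rose. In MET it was at 60.35, 62.07, 56.29 and 62.15 TPM, also below all VEH samples but without a call (-0.12, adjusted p = 0.933). Of all tested genes, 2.81% had MET and VEH samples that did not overlap. With median-of-ratios scaling 8 of the 13 rose and 1 fell, and SCARB2 was no longer called (0.02, adjusted p 0.751).

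Of 6 tested genes listed with the other START proteins, 4 fell and 0 rose with CJ28, with a median of -0.26. Among those that fell was STARD3NL (-0.23, adjusted p = 0.00186), a relative of STARD3 without a START domain. STAR, the START protein that delivers cholesterol into mitochondria, was at 55.1, 53.3, 59.7 and 55.4 TPM in VEH, 21.2, 19.95, 21.3 and 22.6 TPM in CJ28, and 57.4, 59.6, 55.5 and 57.9 TPM in MET. The CJ28 samples lay far below the others, and the log2 fold change was -1.39 (SE 0.045, adjusted p = 8.76e-11), a larger fall than that of STARD4. STARD7 (-0.37, adjusted p = 2.56e-05) and STARD10 (-0.29, adjusted p = 0.00232), which bind phospholipids, fell less. With median-of-ratios scaling 1 of the 6 rose and 2 fell. STARD3NL (-0.07, adjusted p 0.194) and STARD10 (-0.14, adjusted p 0.078) were no longer called, while STARD7 was at -0.21 (adjusted p 0.00296).

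The relatives and partners of OSBP were divided, with 6 of 17 tested higher in CJ28 and 4 lower, and a median of 0.08. OSBP2 rose from 0.728 ± 0.0954 to 1.9 ± 0.245 TPM (SD, n = 4, log2 fold change 1.27, adjusted p = 5.99e-06). GRAMD1A (0.55, adjusted p = 0.000361) and OSBPL1A (0.42, adjusted p = 0.000277) rose too. GRAMD1A makes an Aster protein, which carries cholesterol from the plasma membrane to the ER, and the gene of another Aster protein, GRAMD1B, fell from 27.2 ± 1.63 to 20.1 ± 1.02 TPM (-0.43, adjusted p = 8.58e-06). OSBPL11 (-0.32, adjusted p = 0.0014) and VAPB, an ER protein that anchors OSBP and its relatives (-0.24, adjusted p = 0.00981), also fell. With median-of-ratios scaling 9 of the 17 rose and 3 fell, VAPB was no longer called (-0.09, adjusted p 0.268), and over nuclear protein-coding genes OSBPL11 was not called either (-0.13, adjusted p 0.137).

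Among 9 tested partners at the mitochondrial outer membrane and enzymes of side-chain cleavage, 6 fell and 3 rose, with a median of -0.56, and the counts were the same with median-of-ratios scaling. CYP11A1 fell from 92.6 ± 1.9 to 36.0 ± 0.666 TPM (log2 fold change -1.36, adjusted p = 2.12e-12). DBI, an acyl-CoA-binding protein that is a ligand of TSPO, was at 90.0, 101.4, 96.2 and 87.5 TPM in VEH and 43.0, 43.9, 45.9 and 37.9 TPM in CJ28, with no overlap (-1.14, adjusted p = 1.23e-08). The outer membrane channels VDAC3 (-0.76, adjusted p = 1.35e-08) and VDAC1 (-0.59, adjusted p = 2.27e-09) fell, whereas their relative VDAC2 rose (0.15, adjusted p = 0.00325). ACBD3, a Golgi protein that binds TSPO (0.26, adjusted p = 0.0024), and ATAD3A, a mitochondrial inner membrane protein (0.22, adjusted p = 0.0069), rose as well.

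In the turnover of cholesteryl esters, 1 of 3 tested genes rose and 2 fell. LIPE, the hormone-sensitive lipase that frees cholesterol from droplets, fell (-0.87, adjusted p = 8.22e-06), SOAT1, which makes cholesteryl esters, fell less (-0.21, adjusted p = 2.3e-05), and the ester hydrolase NCEH1 rose (0.26, adjusted p = 0.0114). SOAT1 was not called with median-of-ratios scaling, which left 1 of the 3 lower. Of 4 tested efflux genes, the sterol-sensing receptor NR1H2 rose (0.20, adjusted p = 0.000891) and 2 fell. Those that fell were ABCA1 (1.18 ± 0.113 to 0.117 ± 0.0126 TPM) and ABCG1 (0.47 ± 0.0804 to 0.095 ± 0.0311 TPM), named after their values were seen because their mean over all samples was under 1 TPM.

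All 9 genes of sterol synthesis and its control by SREBP2 fell with CJ28, with a median of -1.51, and all 9 did so with median-of-ratios scaling. The largest falls among them were those of INSIG1 (-2.23, adjusted p = 1.12e-13), HMGCS1 (-1.94, adjusted p = 2.12e-12) and LSS (-1.71, adjusted p = 7.6e-11). For MET against VEH, 0 genes were called by limma in each of these lists. The median log2 fold change of the sterol synthesis list with MET was -0.08, against -0.03 over all tested genes.

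**Figure D4:**
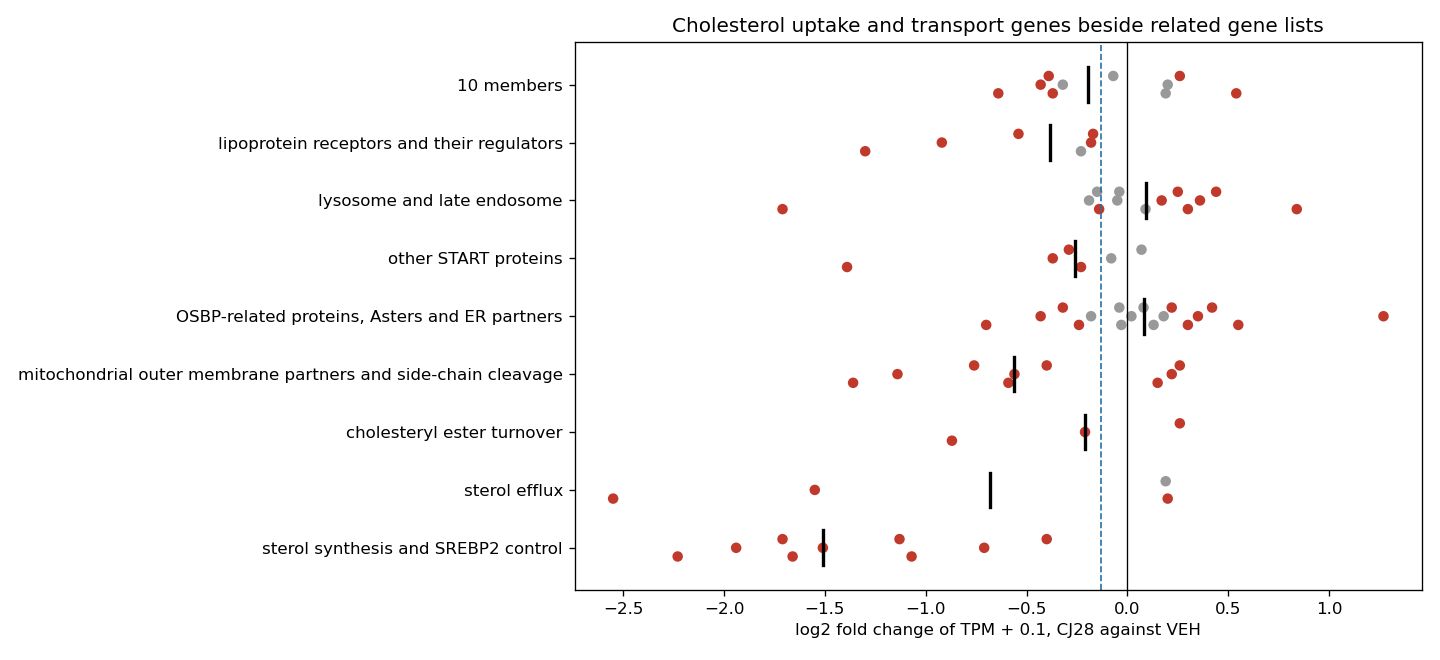
Log2 fold change of TPM + 0.1 for CJ28 against VEH (horizontal axis) of the 10 genes and of the tested genes of 8 related lists (rows). Each point is a gene, red where the adjusted p was under 0.05 and grey otherwise, bars are list medians, and the dashed line is the median of all tested genes. The members lie on both sides of 0, whereas all 9 points of the sterol synthesis list lie below it.

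Some members share their position with other genes, and the strand setting used in counting is not given in the sources used here, so reads of overlapping genes could be shared. STARD4-AS1, a non-coding gene on the opposite strand of STARD4, was at 6.44, 5.82, 5.38 and 6.51 TPM in VEH, 10.28, 10.27, 10.91 and 8.24 TPM in CJ28, and 6.04, 6.47, 7.05 and 5.63 TPM in MET. It rose with CJ28 (log2 fold change 0.70, adjusted p = 4.9e-05) in the samples in which STARD4 fell. RMC1, which overlaps NPC1 on the opposite strand, had a log2 fold change of -0.02 (adjusted p = 0.88), and ISCA2, which overlaps NPC2, had -0.06 (adjusted p = 0.56). Of the tested genes within the span of LIPA, IFIT1 fell (-0.74, adjusted p = 1e-06), while IFIT2 (-0.06, adjusted p = 0.58) and IFIT3 (0.13, adjusted p = 0.22) were not called.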

How the data were processed

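RNA of 12 NCI-H295R samples, grouped by the treatment in the labels, was depleted of ribosomal RNA and made into stranded libraries. The authors trimmed reads with Cutadapt (version 2.8), mapped them to GRCh38 with STAR (version 2.7.10b) and quantified them with RSEM (version 1.3.3), which divides reads among the genes they match. The deposited TPM values hold no depth, so no count model was used.

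A linear model of log2(TPM + 0.1) was made with limma (version 3.58.1) in R (version 4.3.3), moderated with a trend, over the 16815 genes with at least 0.5 TPM in at least 4 samples, in 1 fit of all 12 samples. P-values were two-sided and adjusted by the Benjamini-Hochberg method over all tested genes. A fold change on this scale understates that of low genes. Single genes were also compared by exact permutation tests in Python (version 3.11.15) with scipy (version 1.17.1). The fit was tested on simulated data. The spans of all 10 members were the same in GENCODE 44.

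The members and lists were chosen with earlier results of these data known. From each related list, up to 3 called genes in each direction with the largest change and a mean of at least 1 TPM were named, with STAR always named. STARD3NL was named in addition because it has no START domain. MYLIP, PDZK1, VDAC1, ABCA1 and ABCG1 were named after their values were seen. Some genes are not reported here and were left out of the lists. Alternatives were pseudocounts of 1 and 0.01, no filter, a mean of at least 1 TPM, median-of-ratios scaling, TPM over nuclear protein-coding genes, a fit without the uninvolved group, a replicate block, no trend, and leaving out each sample in turn.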

Additional observations from a re-analysis of the deposited data

Results flagged for a closer look

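TSPO in sample CJ28-4 was at 1.0 TPM, while the nearest of the other 3 CJ28 samples was at 0.46 TPM. This gap was 0.857 of the range of the group, above the 95% critical value of Dixon for a group of 4 samples. It was the 1 value so marked among 30 groups of 4 samples (10 genes in 3 groups), and chance marks about 1 group in 20. CJ28-4 was also the highest CJ28 sample for SCARB1, NPC1, STARD3 and LRP8 and the lowest for LIPA, NPC2, STARD4 and SCP2, and a cause was not tested.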

How the results depend on the processing

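Over the 21 alternatives, 5 to 8 members were called for CJ28 against VEH, 0 for MET against VEH and 6 to 8 for CJ28 against MET. With the replicate block 7 were called for CJ28 against VEH, with SCARB1 added (adjusted p 0.0237), and 7 for CJ28 against MET, with STARD3 added. It changed no other call. Over all tested genes, samples with the same number did not deviate together. Their mean correlation was 0.0236 for VEH and CJ28, -0.0237 for VEH and MET, and -0.0478 for CJ28 and MET. This cannot show whether such samples shared a passage or day, which the labels do not state. Median-of-ratios scaling called 4925 genes higher and 4430 lower for CJ28 against VEH, where TPM as deposited called 3346 and 6231, and 4824 and 4391 against 3516 and 5818 for CJ28 against MET. Without a filter the STARD3 call was lost (adjusted p 0.072). The mean filter left TSPO untested.

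Small changes turned in sign. With median-of-ratios scaling and with TPM over nuclear protein-coding genes, LIPA was 0.0834 and 0.1369 for CJ28 against VEH and 0.0901 and 0.1604 for CJ28 against MET, the last a call (adjusted p 0.0431), and TSPO was 0.007 and 0.0739 for CJ28 against MET. Leaving out 1 sample moved LIPA between -0.0705 and 0.0184 and TSPO between -0.3749 and 0.042 for CJ28 against MET. For MET against VEH it moved LIPA between -0.0662 and 0.0034, NPC2 between -0.0559 and 0.0024, STARD3 between -0.0068 and 0.1111, TSPO between -0.3572 and 0.0046, and OSBP between -0.1213 and 0.005. The causes were not tested. TPM keeps no depth, so the precision of low values such as TSPO could not be given.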
